A study of Mus musculus with 50 samples.

Results

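The 10 enzymes described here are Sptlc1 and Sptlc2 (subunits of serine palmitoyltransferase), Degs1 (dihydroceramide desaturase), Ugcg (glucosylceramide synthase), St3gal5 (GM3 synthase), Smpd1 (acid sphingomyelinase), Asah1 (acid ceramidase), Sphk1 (sphingosine kinase), Sgpp1 (sphingosine 1-phosphate phosphatase) and Sgpl1 (sphingosine 1-phosphate lyase). They were taken by name as a set of sphingolipid enzymes, and every probe set whose only gene symbol is one of these names was used, which gave 13 of the 12488 probe sets of the array. Ugcg, Smpd1 and Sgpl1 had 2 probe sets each. Of the 13, 11 passed the filter on dim probe sets; the single Sphk1 probe set and the dimmer Smpd1 probe set, 161789_r_at, did not.

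Sphingolipids are membrane lipids built on ceramide. Their synthesis starts with serine palmitoyltransferase and dihydroceramide desaturase, ceramide is then glycosylated towards gangliosides or converted to sphingomyelin, and lysosomal sphingomyelinase and ceramidase return it to sphingosine. Sphingosine kinases phosphorylate sphingosine to sphingosine 1-phosphate, the ligand of the receptors S1P2 and S1P3, and a phosphatase and a lyase remove that ligand again. Gangliosides made from GM3 are abundant in the membranes of neurons.

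The study hybridised RNA from the brains of 8-week-old mice to 50 arrays, 25 of hippocampus and 25 of neocortex. In each tissue there were 10 arrays of S1P2-deficient mice (S1P2-KO, 5 males and 5 females), 5 of S1P3-deficient mice (S1P3-KO, 2 males and 3 females) and 10 of wild-type mice (5 males and 5 females). The S1P2-deficient mice are described as having sporadic seizures between 4 and 7 weeks of age and the S1P3-deficient mice as having none. Strain, targeted exons and housing are not given in the sources used here, and the design text repeats the name of 1 genotype, so that the array titles were followed for the groups and their sizes.

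Array values are MAS5 signals, a linear brightness per probe set that was already scaled to a common trimmed mean. Signals are given as deposited. Differences are on the log2 scale of signal + 30.7, with standard errors from limma, and a difference was called at a Benjamini-Hochberg adjusted p under 0.05 over the 8534 probe sets tested. Levels of different probe sets were not compared with each other, because probes differ in brightness. Replicates are arrays that the titles number separately; p-values measure the spread between these arrays.

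The tissue labels were borne out by most markers. In wild-type mice 3 of 4 neocortex markers were called lower in hippocampus, among them Mef2c and Tbr1. Of 4 hippocampus markers 3 were called higher and 1, Spock1, was called lower. The genotype labels could not be checked as well. S1pr2 differed by -0.24 ± 0.16 (SE, adjusted p = 0.925, limma) in S1P2-KO hippocampus and by -0.10 ± 0.14 (adjusted p = 0.874, limma) in S1P2-KO neocortex against wild-type. S1pr3 differed by -0.69 ± 0.18 (adjusted p = 0.164, limma) in S1P3-KO hippocampus and by -0.26 ± 0.17 (adjusted p = 0.638, limma) in S1P3-KO neocortex. Whether these probes lie in the deleted part of either gene is not known, so they check little.

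One array stood apart. The end ratio, taken here as the log2 of 3′ over 5′ probe signal averaged over the Gapdh and beta-actin controls, grows with loss of the 5′ ends of RNA. It was 4.46 on S1P3-KO hippocampus replicate 5. It was 1.37 on S1P2-KO hippocampus replicate 7 and 1.20 on wild-type hippocampus replicate 4, while no other array exceeded 1. Enzyme differences whose call changes when these 3 arrays are left out are given with and without them. For pathway genes, calls lost or gained without these arrays are named, but not every difference is given both ways.

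St3gal5, the sialyltransferase that makes GM3 and so opens the ganglioside series, was called between the tissues in every genotype. Its signal was lower in hippocampus than in neocortex in S1P2-KO, S1P3-KO and wild-type mice, and the hippocampal and neocortical arrays did not overlap in any of the 3 genotypes. Smpd1, which releases ceramide from sphingomyelin, was called lower in hippocampus with its brighter probe set in S1P3-KO mice over all arrays and in all 3 genotypes without the 3 arrays with a high end ratio. Sptlc1, a subunit of the enzyme that starts sphingolipid synthesis, was slightly higher in wild-type hippocampus. No enzyme passed the test in any comparison of a knockout with wild-type.

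Upstream sequence is shown for 3 genes: St3gal5, with the tissue difference in all genotypes; Sptlc1, with the opposite direction in wild-type mice; and Sgpp1, whose signal varied most between arrays among the probe sets tested here for the enzymes. Each is the 250 bases before the annotated start, from RefSeq on mouse GRCm38.p6, at chr6:72097358-72097607 (plus strand) for St3gal5, chr13:53377362-53377611 (minus strand) for Sptlc1 and chr12:75735730-75735979 (minus strand) for Sgpp1. Capitals mark GC boxes (GGGCGG or its reverse complement CCGCCC) and CCAAT boxes (CCAAT or ATTGG).
St3gal5: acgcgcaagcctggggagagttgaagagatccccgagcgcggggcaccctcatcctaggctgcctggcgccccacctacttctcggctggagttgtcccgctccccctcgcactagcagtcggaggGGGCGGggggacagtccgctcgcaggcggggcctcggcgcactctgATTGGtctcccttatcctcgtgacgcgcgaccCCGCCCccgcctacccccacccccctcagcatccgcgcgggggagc
Sptlc1: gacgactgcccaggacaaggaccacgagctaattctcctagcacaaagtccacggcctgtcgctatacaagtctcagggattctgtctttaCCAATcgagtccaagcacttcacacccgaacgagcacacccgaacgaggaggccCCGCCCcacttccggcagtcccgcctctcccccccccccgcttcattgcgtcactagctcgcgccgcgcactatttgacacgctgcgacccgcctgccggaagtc
Sgpp1: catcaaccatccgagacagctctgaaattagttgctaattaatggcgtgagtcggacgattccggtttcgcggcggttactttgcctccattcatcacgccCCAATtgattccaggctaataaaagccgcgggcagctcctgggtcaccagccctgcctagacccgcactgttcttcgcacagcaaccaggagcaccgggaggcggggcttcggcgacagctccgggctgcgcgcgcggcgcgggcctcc
The St3gal5 stretch holds 2 GC boxes and 1 CCAAT box and is 71.6% G or C. Sptlc1 has 1 of each box, and Sgpp1 has no GC box and 1 CCAAT box. A GC box occurs in 32.7% and a CCAAT box in 33.8% of all 32851 promoters in the table. Of the 9 enzymes with an entry, which have 13 starts between them, 6 held a GC box and 6 a CCAAT box at any of their starts, a count per gene that cannot be set against those shares per promoter. These are matches of letters and not measured binding.

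**Figure D1:**
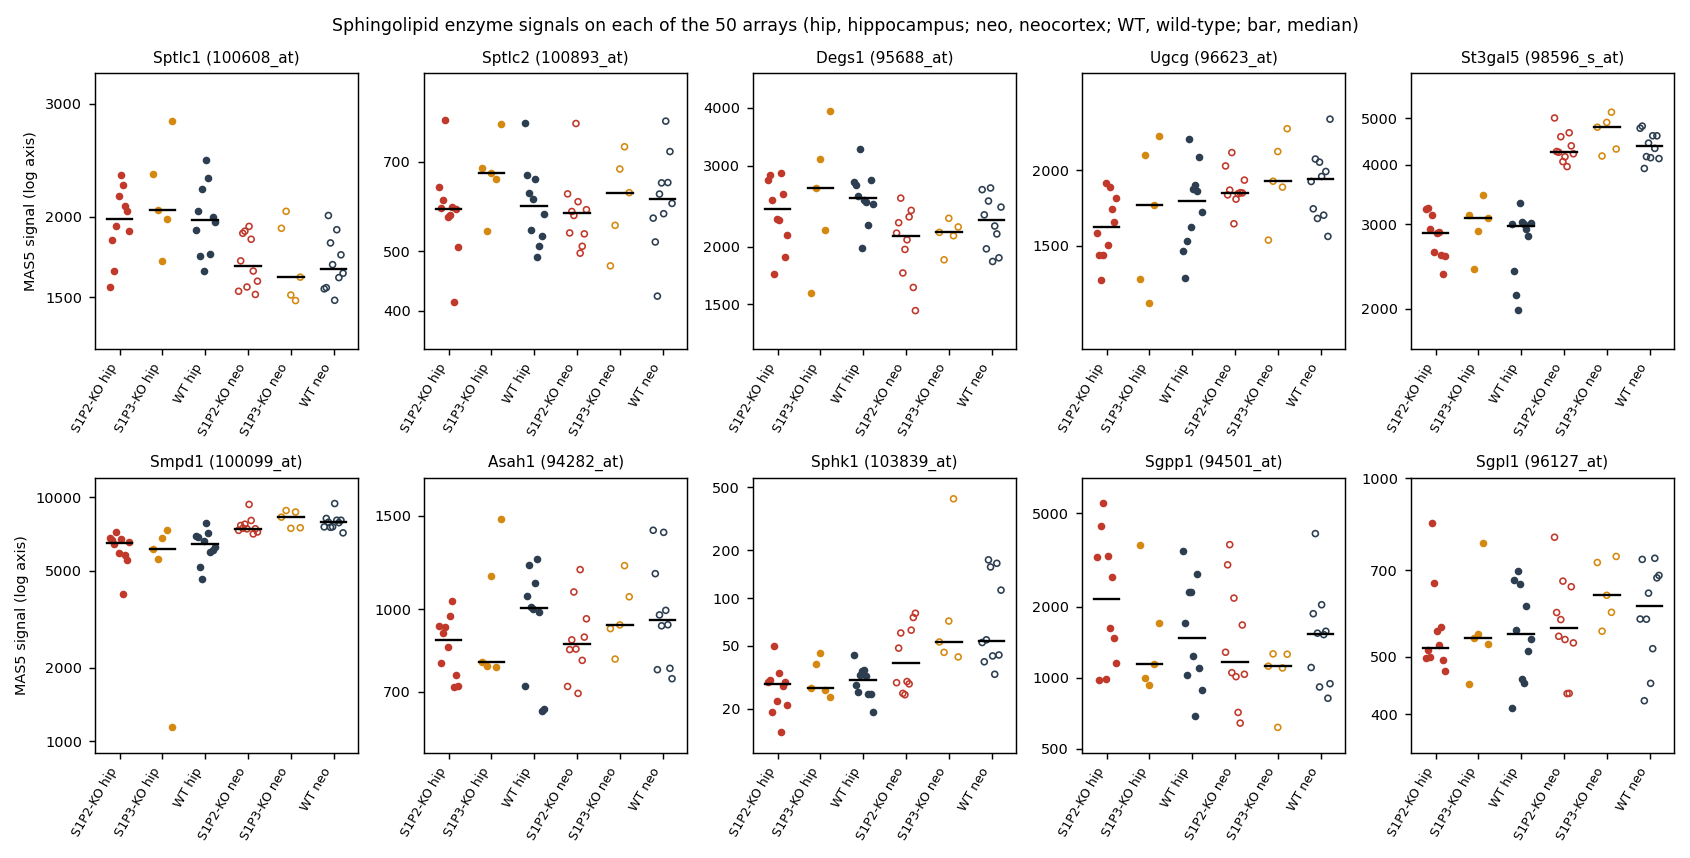
MAS5 signal (log axis) of each enzyme on all 50 arrays, 1 probe set per enzyme, in 6 groups of genotype and tissue (filled, hippocampus; open, neocortex; bar, group median). The hippocampal arrays of St3gal5 all lie below its neocortical arrays, the lowest Smpd1 point (1147) is S1P3-KO hippocampus replicate 5, and Sgpp1 runs between 616.5 and 5516.

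In wild-type mice, 14.6% of all probe sets tested were called between hippocampus and neocortex, 7.83% as higher in hippocampus and 6.74% as lower. Of the 11 enzyme probe sets tested, 1 was called higher in hippocampus (Sptlc1) and 1 lower (St3gal5). In S1P2-KO mice 1 was called, lower, against 14.7% of all probe sets (7.62% higher and 7.09% lower), and in S1P3-KO mice 2 were called, both lower, against 12% of all (5.99% higher and 6% lower). The enzymes' median difference was -0.04 in S1P2-KO, -0.20 in S1P3-KO and -0.10 in wild-type mice, and that of all probe sets tested lay within 0.02 of 0 in each.

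St3gal5 had signals of 2361, 2883 and 3255 (lowest, median, highest of 10) in S1P2-KO hippocampus, against 3962, 4253 and 5006 in S1P2-KO neocortex. In S1P3-KO hippocampus the 5 arrays had 3136, 2418, 2908, 3454 and 3090, against 4789, 4170, 4901, 5147 and 4312 in S1P3-KO neocortex. Wild-type hippocampus had 1992, 2972 and 3332, against 3927, 4380 and 4814 in wild-type neocortex. Every hippocampal array was below every neocortical array of its genotype. Groups that do not overlap were found for 3.45% of probe sets in S1P2-KO, 6.73% in S1P3-KO and 3.59% in wild-type mice.

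The St3gal5 difference, hippocampus minus neocortex, was -0.61 ± 0.07 in S1P2-KO mice (SE, adjusted p = 8.57e-09, limma), -0.64 ± 0.11 in S1P3-KO mice (adjusted p = 1.35e-05, limma) and -0.67 ± 0.07 in wild-type mice (adjusted p = 7.11e-10, limma). It was called under all 12 alternative settings and with any single array left out. No difference in size between genotypes was called: the S1P2-KO effect in hippocampus minus that in neocortex was 0.06 ± 0.11 and the S1P3-KO effect 0.03 ± 0.13, with 95% intervals of -0.15 to 0.27 and -0.23 to 0.29. Within its groups St3gal5 had a standard deviation of 0.16 on the log2 scale, smaller than that of most probe sets tested (6.3rd percentile). Cell markers also moved between the tissues: in wild-type mice 2 of 7 oligodendrocyte and 2 of 7 astrocyte markers were called higher in hippocampus and 2 of 7 neuron markers lower, and their part in the difference was not tested. Apart from the neocortex and hippocampus lists, the choroid plexus list shifted most, with 1 of 4 markers called higher (Kl). Its median difference was 1.85 in S1P2-KO, 1.55 in S1P3-KO and 1.93 in wild-type mice. Of 3 thalamus markers, 1 (Prkcd) was also called higher. The mean log2 level of the oligodendrocyte list ran from 11.42 to 11.87 in wild-type hippocampus and from 11.23 to 11.71 in wild-type neocortex, that of the astrocyte list from 10.80 to 11.57 and from 10.76 to 11.10, and that of the neuron list from 12.40 to 12.76 and from 12.61 to 12.94. The choroid plexus list ran from 7.65 to 12.18 in wild-type hippocampus and from 7.23 to 9.14 in wild-type neocortex, and the thalamus list from 9.56 to 10.31 and from 9.13 to 9.93. In tissue RNA, fewer cells of a type and less RNA per cell cannot be told apart.

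**Figure D2:**
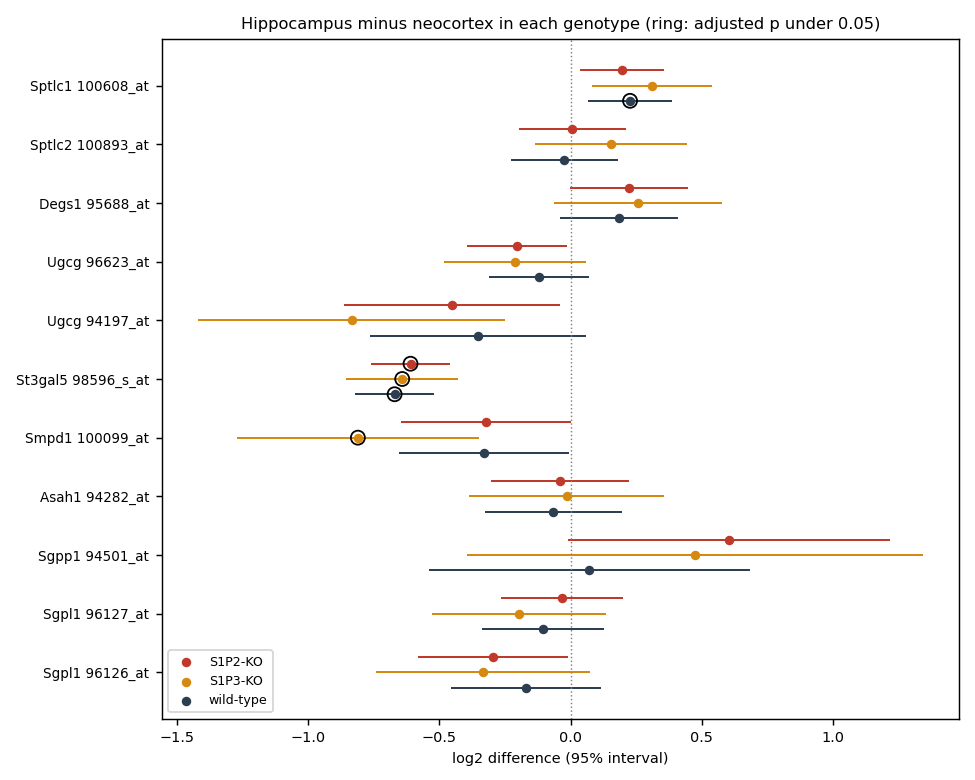
Difference in log2 level, hippocampus minus neocortex, of the 11 enzyme probe sets tested in S1P2-KO, S1P3-KO and wild-type mice, with 95% intervals; rings mark adjusted p under 0.05. St3gal5 is ringed in all 3 genotypes, between -0.61 and -0.67.

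Among the enzymes of synthesis, Sptlc1 had signals of 1556, 1988 and 2324 (lowest, median, highest) in S1P2-KO hippocampus, against 1516, 1679 and 1934 in S1P2-KO neocortex. Wild-type hippocampus had 1650, 1982 and 2454, against 1485, 1661 and 2010 in wild-type neocortex. The 5 arrays of S1P3-KO hippocampus had 2334, 2054, 1710, 1984 and 2816, against 1920, 2041, 1513, 1483 and 1613 in S1P3-KO neocortex. The hippocampal medians were higher in each genotype, and the ranges overlapped.

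The difference for Sptlc1 was 0.20 ± 0.08 in S1P2-KO mice (SE, adjusted p = 0.0953, limma), 0.31 ± 0.11 in S1P3-KO mice (adjusted p = 0.0631, limma) and 0.23 ± 0.08 in wild-type mice (adjusted p = 0.0463, limma). The wild-type call lies close to the threshold. It was lost without the filter (adjusted p = 0.0612, limma), under median scaling (adjusted p = 0.0887, limma), without the sex covariate (adjusted p = 0.0540, limma) and without the 3 arrays with a high end ratio (0.20 ± 0.08, adjusted p = 0.0674, limma), and leaving out single arrays gave adjusted p between 0.0245 and 0.102. Those whose loss ended the call were wild-type neocortex replicates 1, 2, 5, 6, 8 and 10 and wild-type hippocampus replicates 1, 2, 4, 6, 7 and 9. Sptlc2, the other subunit, differed by 0.01 ± 0.10 in S1P2-KO, 0.15 ± 0.14 in S1P3-KO and -0.02 ± 0.10 in wild-type mice. Degs1, which introduces the double bond of ceramide, differed by 0.22 ± 0.11, 0.26 ± 0.16 and 0.18 ± 0.11 in the same order, and neither gene passed the test in any genotype.

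Ugcg, which adds glucose to ceramide, the entry to the glycosphingolipids from which lactosylceramide and then GM3 are made, had negative differences with both probe sets in every genotype. Probe set 94197_at differed by -0.45 ± 0.20 in S1P2-KO mice (adjusted p = 0.146, limma), -0.84 ± 0.29 in S1P3-KO mice (adjusted p = 0.0501, limma) and -0.35 ± 0.20 in wild-type mice (adjusted p = 0.277, limma). Without the 3 arrays with a high end ratio, the S1P2-KO value was -0.42 ± 0.12 and was called (adjusted p = 0.00912, limma), and the S1P3-KO value was -0.26 ± 0.17 (adjusted p = 0.449, limma). Probe set 96623_at gave -0.21 ± 0.09 in S1P2-KO, -0.21 ± 0.13 in S1P3-KO and -0.12 ± 0.09 in wild-type mice. Across the 50 arrays, after subtraction of group and sex means, the 2 Ugcg probe sets had r = -0.35 with each other (r = -0.11 over the 47 arrays with a low end ratio), so they did not vary together from array to array.

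Smpd1, the lysosomal enzyme that splits sphingomyelin into ceramide and phosphocholine, had signals of 4019, 6489 and 7212 (lowest, median, highest) in S1P2-KO hippocampus, against 7065, 7435 and 9329 in S1P2-KO neocortex. Wild-type hippocampus had 4629, 6434 and 7806, against 7137, 7873 and 9407 in wild-type neocortex. The 5 arrays of S1P3-KO hippocampus had 6102, 5594, 6782, 7361 and 1147, against 8275, 8808, 7448, 8685 and 7489 in S1P3-KO neocortex. The S1P3-KO groups did not overlap, and the lowest value of each genotype's hippocampus fell on its array with a high end ratio.

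The Smpd1 difference was -0.32 ± 0.16 in S1P2-KO mice (SE, adjusted p = 0.201, limma), -0.81 ± 0.23 in S1P3-KO mice (adjusted p = 0.0128, limma) and -0.33 ± 0.16 in wild-type mice (adjusted p = 0.179, limma). Only the S1P3-KO value was called, and without replicate 5 it was -0.33 ± 0.12 (adjusted p = 0.0756, limma). Without all 3 arrays with a high end ratio, the values were -0.25 ± 0.06 in S1P2-KO (adjusted p = 0.00289, limma), -0.33 ± 0.09 in S1P3-KO (adjusted p = 0.0138, limma) and -0.28 ± 0.06 in wild-type mice (adjusted p = 0.000806, limma), and all 3 were called. These values are from the brighter Smpd1 probe set. The dim one, 161789_r_at, gave -0.53 ± 0.32 in S1P2-KO, 0.09 ± 0.45 in S1P3-KO and 0.25 ± 0.32 in wild-type mice in the fit without the filter, none called. Asah1, which splits ceramide in the lysosome, had differences between -0.07 and -0.02 in the 3 genotypes, none called.

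**Figure D3:**
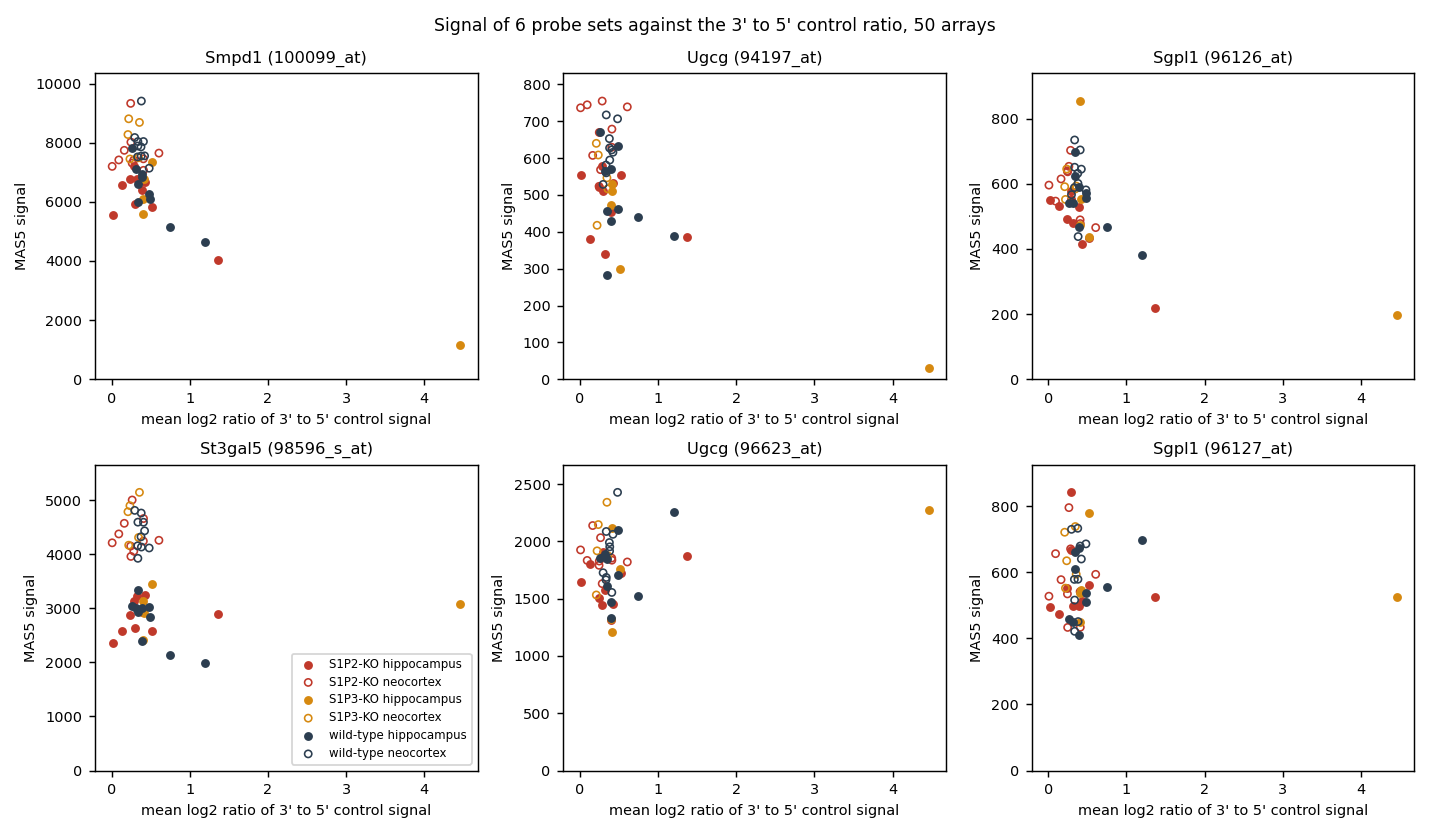
MAS5 signal of 6 probe sets (Smpd1, both Ugcg, both Sgpl1 and St3gal5) against the end ratio of the control probe sets, 1 point per array, 50 arrays. The point at 4.46 is S1P3-KO hippocampus replicate 5, where Smpd1 has 1147 and Ugcg 94197_at 30.1, while St3gal5 has 3090.

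Signals of 4 enzyme probe sets moved with that ratio. After subtraction of group and sex means, r with the end ratio over 50 arrays was -0.93 for Smpd1, -0.83 for Ugcg 94197_at, -0.75 for Sgpl1 96126_at and 0.55 for Degs1. Over the 47 arrays with a low end ratio, r was -0.19, -0.02, -0.45 and 0.50 in the same order, so those of Smpd1 and Ugcg 94197_at rest on the 3 arrays and that of Degs1 does not. The other enzyme probe sets tested had r between -0.06 and 0.38 over 50 arrays. St3gal5 had r = -0.06 in each set of arrays.

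The enzymes of sphingosine 1-phosphate itself are next. Sgpp1, which removes the phosphate, varied more between arrays of a group than nearly all probe sets: its standard deviation within groups was 0.77 on the log2 scale, at the 96.9th percentile of those tested, against a median of 0.30. S1P2-KO hippocampus had signals of 976.9, 2157 and 5516 (lowest, median, highest), against 642.8, 1168 and 3674 in S1P2-KO neocortex. Wild-type hippocampus had 691.1, 1475 and 3445, against 819.4, 1536 and 4094 in wild-type neocortex. The ranges of all these groups overlapped widely. Hippocampus and neocortex arrays of the same genotype and number had r = -0.11 (25 numbers).

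Female arrays had lower median Sgpp1 signals than male arrays in both tissues. In hippocampus the 13 female arrays had 691.1, 1234 and 3291 (lowest, median, highest), against 976.9, 2311 and 5516 in the 12 male arrays. In neocortex females had 616.5, 1036 and 2043, against 914.8, 1416 and 4094 in males. The female minus male difference was -0.56 ± 0.29 in hippocampus (SE, adjusted p = 0.952, limma) and -0.61 ± 0.23 in neocortex (adjusted p = 0.778, limma), and neither was called. Of all probe sets, 0.0586% were called between the sexes in each tissue and 0 of the 11 enzyme probe sets; at an unadjusted p under 0.05 there were 438 of all probe sets (5.13%) and no enzyme in hippocampus, and 525 of all (6.15%) and Sgpp1 alone in neocortex.

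Sgpl1, the lyase that degrades sphingosine 1-phosphate irreversibly, had medians between 518.0 and 634.8 over the 6 groups with probe set 96127_at and between 473.9 and 616.7 with 96126_at. Their tissue differences lay between -0.20 and -0.03 for 96127_at and between -0.33 and -0.17 for 96126_at, none called. Sphk1, a kinase that makes sphingosine 1-phosphate, gave dim signals, with group medians between 27.1 and 53.6. It was therefore outside the main test. In a fit of all 12422 probe sets without the filter, its difference between hippocampus and neocortex was -0.37 ± 0.23 in S1P2-KO (adjusted p = 0.428, limma), -0.87 ± 0.32 in S1P3-KO (adjusted p = 0.0984, limma) and -0.82 ± 0.23 in wild-type mice (adjusted p = 0.0123, limma). On the log2(signal + 30.7) scale such folds understate changes of dim probe sets.

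Comparisons of the knockouts with wild-type address whether loss of a sphingosine 1-phosphate receptor was accompanied by altered transcript levels of the enzymes that make and remove its ligand. None of the 11 enzyme probe sets was called in any of the 4 comparisons, or in any alternative. The background was as low: 0% of all probe sets were called in S1P2-KO hippocampus, 0.0352% in S1P3-KO hippocampus, 0% in S1P2-KO neocortex and 0% in S1P3-KO neocortex. At an unadjusted p under 0.05 limma gave 473 (5.54%), 814 (9.54%), 746 (8.74%) and 895 (10.5%) of the 8534 probe sets in the same order, with 0 enzyme probe sets in each.

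In S1P2-KO hippocampus 3 of the 11 enzyme probe sets were higher and 8 lower than in wild-type, with a median difference of -0.03, and 49.1% of all probe sets were higher. In S1P2-KO neocortex 2 were higher and 9 lower, with a median of -0.06, beside 48.4% of all probe sets. In S1P3-KO mice 5 were higher and 6 lower in each tissue, with medians of 0.00 in hippocampus and -0.01 in neocortex. S1P2-KO and S1P3-KO mice were set against the same wild-type arrays, so these counts are not independent.

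**Figure D4:**
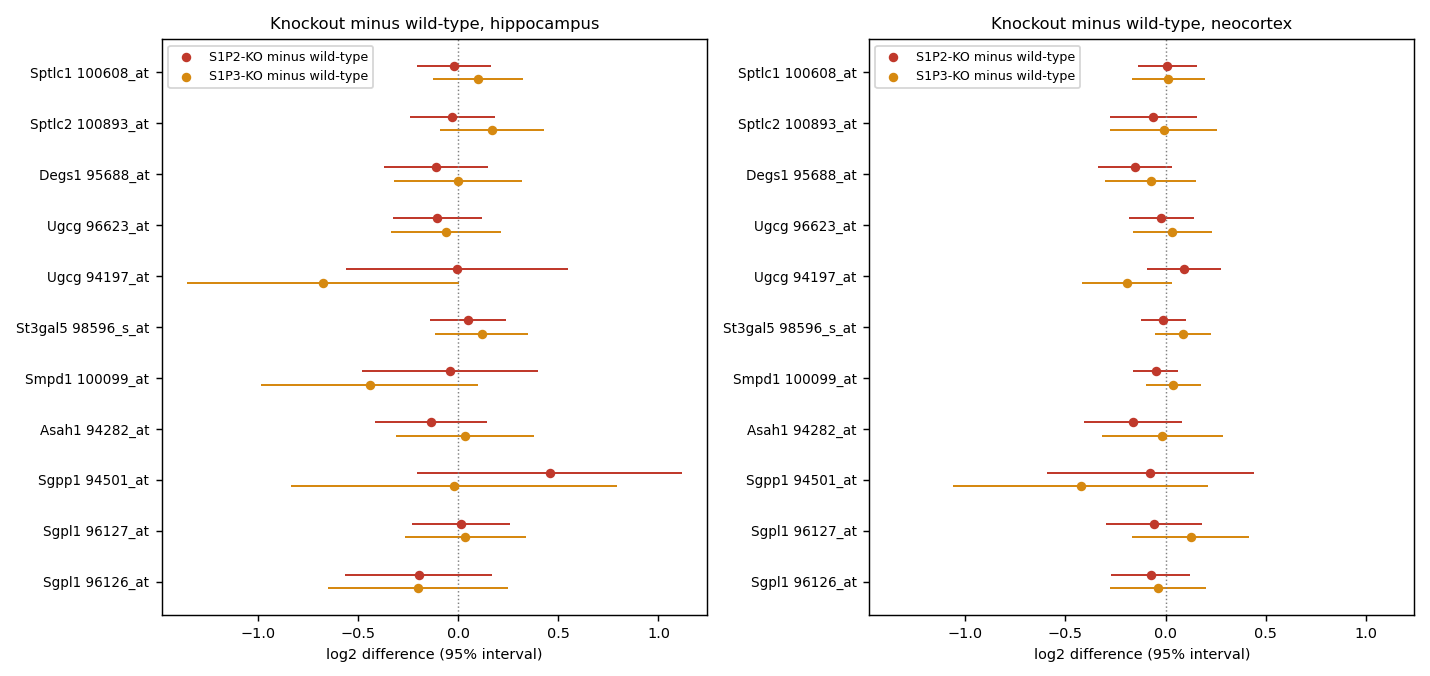
Difference in log2 level, S1P2-KO or S1P3-KO minus wild-type, of the 11 enzyme probe sets tested in hippocampus and neocortex, with 95% intervals. No point was called, and the widest intervals are those of Sgpp1 and of Ugcg 94197_at in hippocampus.

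The intervals bound the changes that could have gone unseen. For St3gal5 the S1P2-KO minus wild-type difference was 0.05, with a 95% interval of -0.14 to 0.24, in hippocampus and -0.01, with -0.12 to 0.10, in neocortex. For Sptlc1 it was -0.02 (-0.20 to 0.16) in hippocampus and 0.01 (-0.14 to 0.16) in neocortex. Degs1 differed by -0.15 ± 0.09 in S1P2-KO neocortex (adjusted p = 0.642, limma), or by -0.04 ± 0.08 with the end ratio as a covariate. Asah1 differed by -0.14 ± 0.14 in S1P2-KO hippocampus (adjusted p = 0.957, limma) and by -0.16 ± 0.12 in S1P2-KO neocortex (adjusted p = 0.726, limma).

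Among the 11 enzyme probe sets tested, Sgpp1 had the largest S1P2-KO difference, 0.46 ± 0.32 in hippocampus (95% interval -0.20 to 1.12, adjusted p = 0.930, limma). The dim Sphk1 probe set, outside the main test, differed by -0.52 ± 0.30 in S1P2-KO neocortex in the fit without the filter (adjusted p = 0.693, limma). In S1P3-KO neocortex the 5 arrays had Sgpp1 signals of 1121, 1264, 616.5, 1101 and 1260, against 819.4, 1536 and 4094 (lowest, median, highest) in wild-type neocortex. All 5 lay below the wild-type median and within the wild-type range apart from the lowest, and the difference was -0.42 ± 0.31 (adjusted p = 0.695, limma).

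The largest S1P3-KO differences in hippocampus were those of Ugcg 94197_at and Smpd1, and both rest on replicate 5. Ugcg 94197_at had 473.0, 509.4, 529.1, 297.8 and 30.1 on the 5 S1P3-KO arrays, against 281.6, 460.2 and 670.3 (lowest, median, highest) in wild-type hippocampus. The difference was -0.68 ± 0.33 with replicate 5 (adjusted p = 0.525, limma) and -0.10 ± 0.19 without it (adjusted p = 0.931, limma). Smpd1 differed by -0.44 ± 0.26 with replicate 5 (adjusted p = 0.583, limma) and by 0.03 ± 0.13 without it (adjusted p = 0.965, limma).

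S1P2-KO set directly against S1P3-KO gave 0 of 11 enzyme probe sets called in either tissue, with 0% of all probe sets called in each; at an unadjusted p under 0.05 limma gave 982 (11.5%) in hippocampus and 506 (5.93%) in neocortex. In neocortex Ugcg 94197_at was the only enzyme probe set among those 506, at 0.29 ± 0.11 (adjusted p = 0.731, limma). The differences of knockout effects between the tissues also had 0% of all probe sets and 0 enzymes called, with 222 probe sets (2.6%) for S1P2-KO and 438 (5.13%) for S1P3-KO, and 0 enzymes in each, at an unadjusted p under 0.05.

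For each enzyme, the 2 genes whose levels followed it most closely over the 50 arrays were found after subtraction of the group and sex means. St3gal5 was followed most closely by Lipe (r = 0.66) and Gipc1 (r = 0.65), and Degs1 by Nedd8 (r = 0.84) and Ctbp1 (r = 0.81). Sptlc1 was nearest to Sumo3 (r = 0.73) and Tpgs2 (r = 0.72), Asah1 to Lamtor4 (r = 0.71) and Romo1 (r = 0.69), and Sgpp1 to Slc66a2 (r = 0.63) and Ywhab (r = 0.59). Sptlc2 was nearest to Atp1b3 (r = 0.55) and Ndufa9 (r = 0.53), Ugcg to Cmas (r = 0.68) and Nrsn1 (r = 0.61), and Sgpl1 to Sirt2 (r = 0.63) and 5031439G07Rik (r = 0.56). Smpd1 was nearest to Prkar1b (r = 0.96) and C1qa (r = 0.95), but over the 47 arrays with a low end ratio r was 0.58 and 0.41. These values are the highest among all other genes tested and their points share the same arrays, so they are a description only.

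Beyond the 10 enzymes, a list of 62 other genes of the pathway had 30 on the array, of which 27 were tested. In wild-type mice 2 of the 27 were called between the tissues, against 14.6% of all probe sets. Plpp3, a phosphatase that dephosphorylates lipid phosphates at the cell surface, was higher in hippocampus, at 0.43 ± 0.10 (adjusted p = 0.00203, limma), and Glb1, lysosomal beta-galactosidase, lower, at -0.23 ± 0.08 (adjusted p = 0.0343, limma). Wild-type Plpp3 signals ran from 3380 to 5634 in hippocampus and from 2322 to 3680 in neocortex, so the groups overlapped. Plpp3 was also called in S1P2-KO mice (0.41 ± 0.10) and S1P3-KO mice (0.42 ± 0.15).

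In S1P2-KO mice 3 of the 27 pathway genes were called higher in hippocampus and 1 lower, 4 in all, a share close to the 14.7% of all probe sets. Besides Plpp3 these were Smpdl3a (0.32 ± 0.10) and B4galt6, which makes lactosylceramide (0.24 ± 0.07), with St8sia5, a ganglioside sialyltransferase, lower (-0.61 ± 0.12). In S1P3-KO mice 4 were called higher and 2 lower, against 12% of all probe sets: besides Plpp3, Smpdl3a (0.42 ± 0.14), B4galt6 (0.31 ± 0.09) and Sptssa, a small subunit of serine palmitoyltransferase (0.47 ± 0.15), with B4galnt1, the GM2 and GD2 synthase, lower (-0.63 ± 0.21) and Psap, the precursor of the saposins, lower (-0.66 ± 0.22). The Psap value is from its brightest probe set. Its other probe sets gave -0.01 ± 0.19 (adjusted p = 0.984, limma) and -1.38 ± 0.49 (adjusted p = 0.0576, limma), neither called. All 6 S1P3-KO calls were lost without the 3 arrays with a high end ratio, with adjusted p between 0.0732 (B4galt6) and 0.326 (B4galnt1, at -0.28 ± 0.15) by limma, while the 4 S1P2-KO calls and those of Plpp3 and Glb1 in wild-type mice were kept. Without these arrays Cerk, ceramide kinase, was called lower in S1P2-KO hippocampus (-0.31 ± 0.11, adjusted p = 0.0376, limma), as was Degs2, a relative of Degs1, in wild-type hippocampus (-0.79 ± 0.26, adjusted p = 0.0321, limma). Cerk, Degs2 and the genes named here for the knockouts' tissue difference, other than Plpp3, were chosen after their values were seen.

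**Figure D5:**
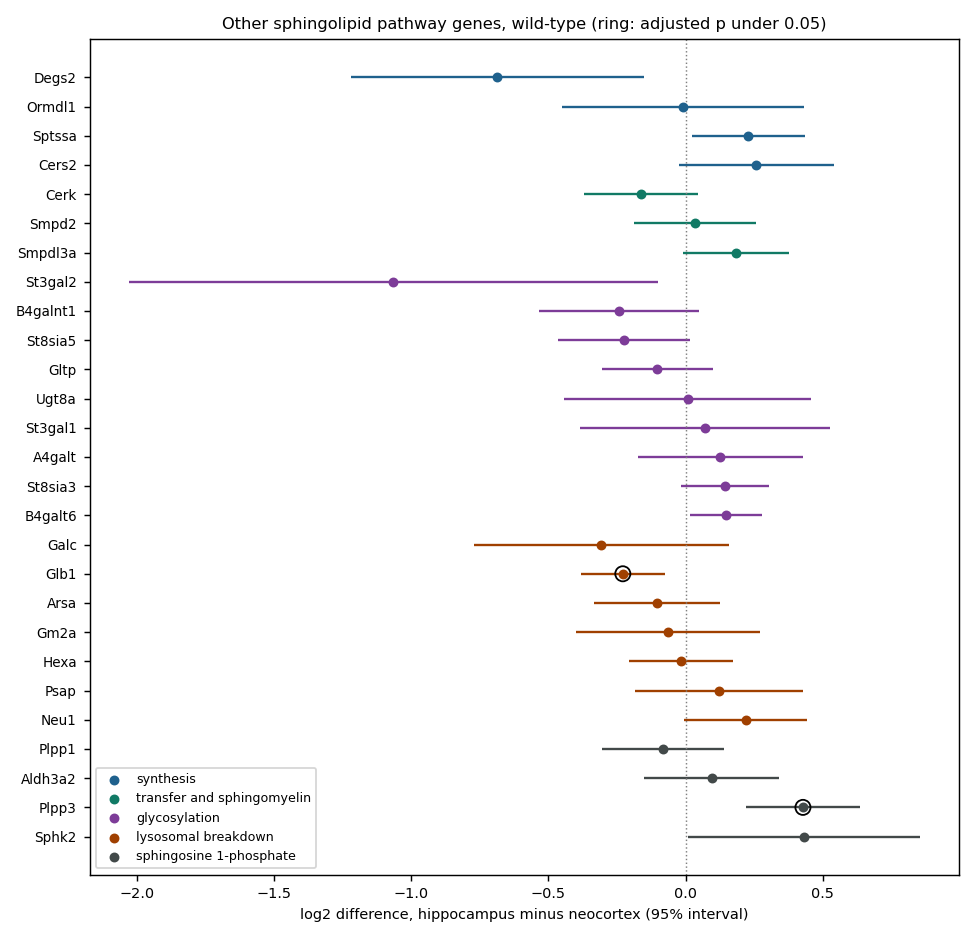
Difference in log2 level, hippocampus minus neocortex, in wild-type mice for the 27 other sphingolipid pathway genes tested, coloured by role, with 95% intervals; rings mark adjusted p under 0.05. Only Plpp3 (0.43) and Glb1 (-0.23) are ringed, while St3gal2 has the widest interval.

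None of the 27 pathway genes was called in a comparison of a knockout with wild-type. At an unadjusted p under 0.05 there were 0 in S1P2-KO hippocampus, 3 in S1P3-KO hippocampus, 4 in S1P2-KO neocortex and 2 in S1P3-KO neocortex. The shares of all probe sets at that level were 5.54%, 9.54%, 8.74% and 10.5% in the same order, so these counts do not set the pathway apart. The 2 with the smallest p were Gm2a (0.26 ± 0.16) and B4galt6 (0.11 ± 0.07) in S1P2-KO hippocampus, St8sia5 (0.28 ± 0.10) and Smpdl3a (-0.21 ± 0.08) in S1P2-KO neocortex, and Gltp (-0.28 ± 0.12) and Glb1 (-0.18 ± 0.08) in S1P3-KO neocortex. In S1P3-KO neocortex the other Gltp probe set went the other way, at 0.10 ± 0.18, and the other Glb1 probe set gave -0.57 ± 0.28, neither called.

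In S1P3-KO hippocampus the pathway genes with the smallest p were Psap (-0.92 ± 0.20, adjusted p = 0.0810, limma) and Neu1, a lysosomal sialidase (-0.37 ± 0.12, adjusted p = 0.335, limma). Psap signals ran from 5481 to 10036 on the 5 S1P3-KO arrays, against 10519 to 22207 in wild-type hippocampus, so the groups did not overlap, which was found for 0.164% of all probe sets in this comparison. The other Psap probe sets gave -0.36 ± 0.14 and -1.51 ± 0.51, neither called, and without the 3 arrays with a high end ratio the first value was -0.81 ± 0.21 (adjusted p = 0.209, limma).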

How the data were processed

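The values are MAS5 signal intensities on Affymetrix MG_U74Av2 arrays, made and scaled to a trimmed mean near 1000 by the authors before they were deposited, per the submitters' processing notes and the values themselves. Total RNA (12 µg, TRIzol) was hybridised, 1 array per tissue sample; array brightness has no counting depth, so the number of arrays limits the precision. Genotype, tissue, sex and replicate number came from the titles.

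From the deposited intensity, log2(signal + 30.7) was computed (30.7, the 10th percentile of all signals). The 66 control probe sets were left out, and 8534 probe sets of 12488 with a mean log2 level above that of a signal of 132.6 (the pooled 30th percentile) were tested with limma 3.58.1 in R 4.3.3 (lmFit, eBayes with trend), with Benjamini-Hochberg adjustment over all of them at 0.05. Fits within a tissue used its 25 arrays with sex as a covariate; comparisons between tissues used all 50, with sex within tissue. Of the probe sets, 10855 had 1 gene symbol, 396 several and 1237 none. The fits were tested on simulated data with known upward log2 shifts. For each comparison 67, 67 and 66 of 8534 probe sets were shifted by 0.25, 0.5 and 1. Noise was independent between arrays, and each probe set had the same spread on every array. Real arrays, among them those with a high end ratio, may therefore give other shares. A shift of 0.5 was called in 50.7% of changed probe sets for S1P2-KO neocortex and 29.9% for S1P3-KO hippocampus, both against wild-type. Between the wild-type tissues it was called in 58.2%. For a shift of 0.25 the shares were 10.4%, 2.99% and 7.46% in the same order, so small changes can go uncalled. No pair of arrays held identical values, and no scan date or batch is given in the labels.

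Arrays with the same number were not treated as pairs in the main fits. Of 25 hippocampus and neocortex pairs, 13 correlated above 0.1 (r from -0.06 to 0.26) and 8 were the best match. Pairs with wild-type correlated above 0.1 in 4 of 15 in hippocampus and 0 of 15 in neocortex, with 2 and 1 best matches. Best matches were thus more frequent between the tissues than with wild-type, and the main tissue fits ignore any such pairing. Whether the numbers mark the same animal in the 2 tissues is not known, and the replicate block was fitted as an alternative. The enzymes, gene lists and tests were chosen with earlier results of these data known. Named genes are all 10 enzymes, S1pr2 and S1pr3, the pathway genes called in wild-type tissue or otherwise of smallest p in a knockout comparison, and the 2 closest followers of each enzyme. Alternatives changed the pseudocount, filter, scaling, covariates, weights and arrays.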

Additional observations from a re-analysis of the deposited data

Results flagged for a closer look

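In 10 of 78 groups of enzyme signals the highest or lowest array lay far from its neighbour by Dixon's criterion, where chance gives about 1 in 20. Of these, 4 fell on arrays with a high end ratio. On S1P3-KO hippocampus replicate 5, Ugcg 94197_at had 30.1, against 297.8 for the next array, and Smpd1 had 1147, against 5594. On S1P2-KO hippocampus replicate 7, Smpd1 had 4019, against 5540, and Sgpl1 96126_at had 218.0, against 414.6. The end ratio and these signals moved together, and its part in them was not tested.

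The other 6 fell on arrays with a low end ratio. Smpd1 was highest at 9329 on S1P2-KO neocortex replicate 6 and at 9407 on wild-type neocortex replicate 6, and Sgpl1 96126_at was lowest there, at 438.0. Sptlc2 had 807.9 on S1P2-KO neocortex replicate 5, against 620.2 for the next. Sphk1 had 422.9 on S1P3-KO neocortex replicate 4, against 71.7, and Sgpp1 had 616.5 on S1P3-KO neocortex replicate 3, against 1101.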

How the results depend on the processing

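Counts of enzyme probe sets called stayed at 0 in all 4 comparisons of a knockout with wild-type, both of S1P2-KO with S1P3-KO, both differences of knockout effects and both of the sexes, under every setting fitted; without a sex covariate or with only 2 groups the sex comparisons could not be fitted. Between the tissues the count of 2 in wild-type mice was 1 under median scaling and without the sex covariate, as Sptlc1 was lost, 3 with array weights, with the end ratio as a covariate and with only the 2 groups compared, as Smpd1 was added, and 1 to 2 with single arrays left out. It stayed at 2 without the filter and without the 3 arrays with a high end ratio, but Sptlc1 was lost in both. Its place was taken without the filter by Sphk1, which is outside the main test, and without these arrays by Smpd1. In S1P2-KO mice the count of 1 became 3 with array weights, with the end ratio as a covariate and without the 3 arrays with a high end ratio (Smpd1 and Ugcg 94197_at added), and 4 with only the 2 groups compared (also Ugcg 96623_at); it stayed at 1 with single arrays left out. In S1P3-KO mice the count of 2 became 4 with a filter at the 50th percentile, without the sex covariate and with the replicate block (Sptlc1 and Ugcg 94197_at added), and 1 with array weights, with the end ratio as a covariate and with only the 2 groups compared (Smpd1 lost); with single arrays left out it ran from 1 to 4, with 4 without hippocampus replicate 1 or 3 and 1 without replicate 5. The replicate block changed no other count of enzymes; over all probe sets it raised the calls from 0 to 87 in S1P3-KO against wild-type neocortex, from 0 to 47 in S1P2-KO against S1P3-KO neocortex and from 5 to 77 between the sexes in neocortex, and 8 of 25 arrays correlated best with the other tissue's array of their number. Over all probe sets the S1P3-KO tissue count of 1023 was 255 with only the 2 groups compared, the S1P3-KO hippocampus count of 3 ran from 0 to 12 with single arrays left out, and 8 were called in S1P2-KO neocortex with array weights. No enzyme difference that was called changed direction. The causes were not tested.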
